A study of Mus musculus with 115 samples.

Results

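Livers of 24-month-old mice were compared with livers of 15-month-old mice by RNA-seq of whole tissue. The members were the liver libraries that carry either age in their labels, 5 of each age, which makes 10 of the 24 liver libraries in the main table of counts and 10 of the 115 libraries of the series. The series covers brain, liver, skin and blood of male mice at 5 ages from 2 to 30 months (2, 9, 15, 24, 30). All animals were C57BL/6 males (C57BL/6J in the methods of the study) from a breeding facility, no treatment or engineered allele is named for any of them, and each library came from the liver of a separate mouse, so that no animal is shared by the ages and the spread behind the p-values is that between mice. The liver pieces were snap frozen. The hour of killing and the time since the last meal were not given in the sources used here.

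The liver is built mostly of hepatocytes, which store glucose as glycogen and turn the surplus into fatty acids after a meal, and which burn fatty acids and release glucose during a fast. Enzymes of fatty acid synthesis are induced together by insulin and glucose through the transcription factors SREBP-1c and ChREBP. Hepatocytes near the portal vein and near the central vein carry out different tasks, and in male mice the pulsed secretion of growth hormone maintains a male pattern of expression that includes the major urinary proteins.

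The 5 libraries of 15 months held between 26707275 and 42495468 counts and those of 24 months between 22785839 and 37074928. Of 19 hepatocyte identity genes tested none was called between the ages (edgeR quasi-likelihood test, 6 at an unadjusted p below 0.05, against 2822 of the 16319 genes tested in all) and their median log2 fold change was 0.01. Their summed level, in counts-per-million units (CPM), was 106700 to 185400 at 15 months and 116000 to 155400 at 24 months. Several libraries stood apart. Mitochondrial ribosomal RNA (mt-Rnr1 and mt-Rnr2) took 0.199 to 0.630% of counts at 15 months and only 0.0929 to 0.167% at 24 months, without overlap, against 0.144 to 0.408% at 2, 0.252 to 0.313% at 9 and 0.168 to 0.338% at 30 months. Lars2, a mitochondrial tRNA synthetase gene, was at 1934, 1123, 11492, 9006 and 1516 CPM at 15 months and at 359.9, 828, 305, 645 and 1162 CPM at 24 months, with 15-month replicates 3 and 4 far above the rest. The 16 pancreatic acinar genes found in the table, summed, reached 646.7 CPM in 24-month replicate 1, whereas the other 9 libraries had 7.08 to 40.3 CPM. The part of these differences in the results was not tested. The number of called genes is given below with and without the libraries concerned, and with the mitochondrial ribosomal RNA share as a covariate.

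**Figure D1:**
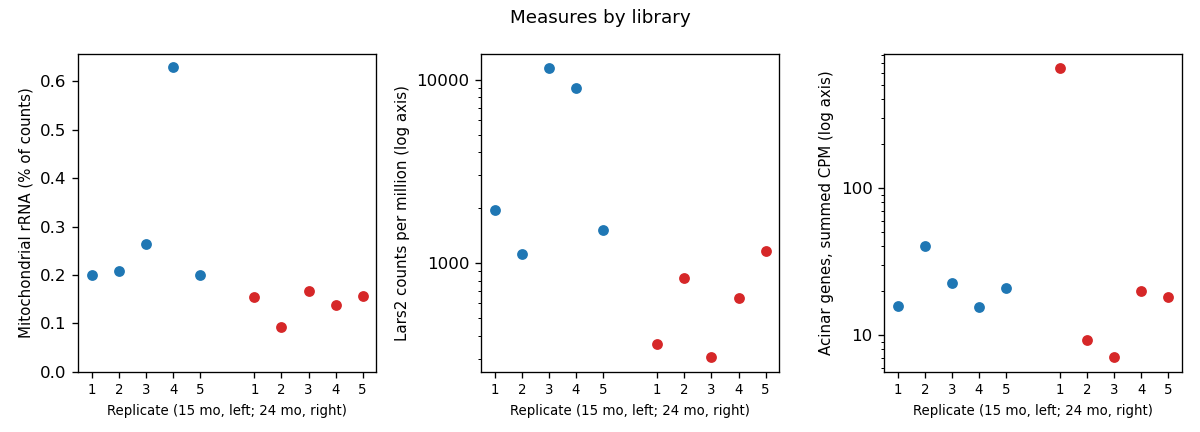
Each point is 1 liver library of 15 months (blue) or 24 months (red), plotted by replicate number. The panels show the percentage of counts in mitochondrial ribosomal RNA, the Lars2 level and the summed level of pancreatic acinar genes (CPM, log axes). All 24-month libraries lie at or below 0.167% mitochondrial ribosomal RNA, and 24-month replicate 1 stands alone at 646.7 CPM of acinar transcripts.

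Between 15 and 24 months 8 of 23 genes of fatty acid and triglyceride synthesis fell in the liver, among them Thrsp, Me1 and Fasn, as did the glycogen gene Ppp1r3b, and a smaller set of genes rose, among them the growth factor receptor gene Fgfr1. Of 16319 genes tested, 134 were higher (0.821%) and 202 lower (1.24%) at 24 months, together 2.06%, at a Benjamini-Hochberg adjusted p below 0.05 in the edgeR quasi-likelihood test, and the median log2 fold change of all genes was 0.02. An unadjusted p below 0.05 was found for 2822 of the 16319 genes, the background for each unadjusted count given for a list. In 923 genes (5.66%) the CPM values of the 2 ages did not overlap, among them 280 of the called ones. The number of calls depended on single libraries. It was lowest (77) without 15-month replicate 3 and highest (396) when 24-month replicate 4 was left out, and it fell by more than 1.5 times when any of the 5 libraries of 15 months or 24-month replicates 1, 2 or 3 was left out (77 to 164 calls). Without 24-month replicate 1, the library with acinar transcripts, 118 genes were called. With 15-month replicates 3 and 4 both left out the count was 29, and with the share of mitochondrial ribosomal RNA as a covariate it was 11. That share separates the 2 ages, so that the covariate and age cannot be told apart in this fit. No called gene changed sign under any alternative, 53 stayed called whichever library was left out, and 10 stayed called under all 19 alternatives, among them Fgfr1, Ppp1r3b, Thrsp, Rtkn, Aqp8, Stk38l, Pltp and Slc30a10. In bulk tissue, fewer cells of a type and less RNA per cell cannot be told apart.

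Fatty acid and triglyceride synthesis was the group with the most calls among the gene lists, and all of them were falls. Of 23 members tested 8 fell and none rose, the median log2 fold change was -0.82 against 0.02 for all genes, and the ages did not overlap for 11 members. Thrsp (ENSMUSG00000035686, chromosome 7: 97412938 to 97417730, coordinates here and below on GRCm38), the Spot 14 protein that promotes lipogenesis, was at 284, 362, 339, 172 and 254.6 CPM in replicates 1 to 5 at 15 months and at 27.7, 41.1, 22.3, 75.3 and 59.9 CPM at 24 months. Every 24-month library lay below every 15-month one, and the log2 fold change was -2.64 ± 0.39 (SE), adjusted p = 0.00222. Malic enzyme Me1 (ENSMUSG00000032418, chromosome 9: 86581371 to 86695953), which supplies NADPH for fat synthesis, was at 445, 484, 458, 248 and 295 CPM at 15 months and 45.7, 81.7, 60.3, 133 and 84.1 CPM at 24 months. Again no library of one age reached the range of the other (log2 fold change -2.25 ± 0.36 (SE), adjusted p = 0.0037). Fatty acid synthase Fasn (ENSMUSG00000025153, chromosome 11: 120805846 to 120824547) stood at 890.5, 888, 663, 799 and 743 CPM before and at 264, 377, 234.5, 402 and 355 CPM after, the highest 24-month value being below the lowest 15-month value. Its log2 fold change was -1.29 ± 0.24 (SE), adjusted p = 0.0106. Elovl6, which elongates palmitate to stearate, had 163, 118, 155, 102 and 116 CPM at 15 months and 39.9, 38.9, 45.7, 60.1 and 90.3 CPM at 24 months (log2 fold change -1.25 ± 0.24 (SE), adjusted p = 0.0112). Thus these 4 genes each separated the 2 ages completely, and each remained called whichever library was left out. Of them, Thrsp also remained called with the mitochondrial ribosomal RNA covariate, Me1 and Fasn did not.

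The other called members were Acacb, the acetyl-CoA carboxylase of the mitochondrial surface (-1.27 ± 0.27 (SE), adjusted p = 0.0231, held in 7 of 10 fits with 1 library left out), the lipase gene Pnpla3 (-1.96 ± 0.44 (SE), adjusted p = 0.0254, held in 8) and its relative Pnpla5 (-3.10 ± 0.76 (SE), adjusted p = 0.0362, held in 3), and Gpam, which starts triglyceride synthesis (-0.90 ± 0.24 (SE), adjusted p = 0.0462). Gpam was lost in all 10 fits with 1 library left out, which gave 4 to 7 called members in all, and only 1 member was called with the mitochondrial ribosomal RNA covariate. Acly, which makes cytosolic acetyl-CoA, and Scd1, the main desaturase, had negative values that missed the threshold (-0.96 ± 0.26, adjusted p = 0.0505, and -0.82 ± 0.27, adjusted p = 0.104). The genes of the regulators themselves had values near 0, with -0.12 ± 0.28 for Srebf1 and -0.11 ± 0.19 for Mlxipl, neither called. At 30 months Thrsp was at 131, 269.6, 295, 97.4 and 459.7 CPM and Fasn at 613, 607, 1251, 814 and 981 CPM. The change from 24 to 30 months, which shares the 24-month libraries, was 2.47 (adjusted p = 0.00526) for Thrsp and 2.81 (adjusted p = 0.00526) for Pnpla3 on the log2 scale.

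**Figure D2:**
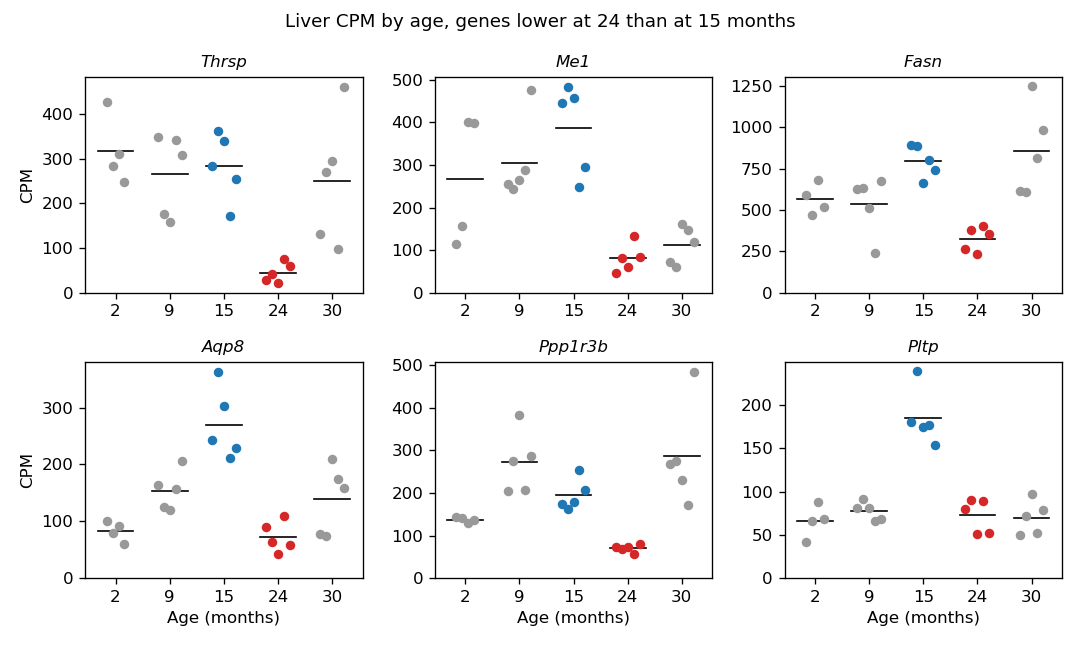
CPM of Thrsp, Me1, Fasn, Aqp8, Ppp1r3b and Pltp in each liver library (points) by age in months, with the mean of each age as a black line, 15 months in blue, 24 months in red and other ages in grey. In all 6 panels the 5 libraries of 24 months lie below the 5 of 15 months.

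The promoters of the falling lipogenic genes are shown because the family is known to be regulated together at this level. The stretches below end just upstream of the annotated transcription start, are taken from RefSeq (GRCm38.p6) and are written 5′ to 3′ on the strand of the gene, with CCAAT boxes in capitals (ATTGG where the box lies on the opposite strand). Those of Me1 and Elovl6 are shorter than the 250 bases searched because GENCODE places the start of these genes further upstream than RefSeq.
Fasn (chr11:120824548-120824797, minus strand): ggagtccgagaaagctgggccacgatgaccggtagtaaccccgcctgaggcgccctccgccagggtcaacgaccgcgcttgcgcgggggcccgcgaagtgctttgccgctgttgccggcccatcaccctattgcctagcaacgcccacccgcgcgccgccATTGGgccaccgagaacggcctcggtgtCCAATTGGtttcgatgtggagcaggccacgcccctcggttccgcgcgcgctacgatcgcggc
Me1 (chr9:86695954-86696164, minus strand): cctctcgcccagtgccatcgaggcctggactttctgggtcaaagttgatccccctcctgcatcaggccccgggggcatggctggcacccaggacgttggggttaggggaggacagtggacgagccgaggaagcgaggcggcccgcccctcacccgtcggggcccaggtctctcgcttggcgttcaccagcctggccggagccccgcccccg
Elovl6 (chr3:129532136-129532354, plus strand): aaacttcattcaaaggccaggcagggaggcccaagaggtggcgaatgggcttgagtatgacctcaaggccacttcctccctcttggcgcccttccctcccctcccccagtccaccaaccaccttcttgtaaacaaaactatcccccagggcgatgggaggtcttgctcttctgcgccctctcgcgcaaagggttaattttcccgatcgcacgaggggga
The motifs were searched on both strands: the E-box CACGTG, the CCAAT box, and the sterol regulatory element TCACNCCAC. The 250 bases upstream held CACGTG in 6.02%, CCAAT in 33.8% and TCACNCCAC in 1.05% of 32851 annotated windows. In the uncut RefSeq windows of 250 bases, 6 of the 8 called members had a CCAAT box, 1 (Pnpla5) had CACGTG and 0 had TCACNCCAC. Thrsp was among the 6, but the 70 bases of its window that lie upstream of the GENCODE start held no match. Among the 18 of 23 tested members with such a window the corresponding numbers were 10, 4 and 0. The Fasn window held 3 CCAAT matches, of which a pair overlaps on opposite strands, and the Me1 and Elovl6 windows held no match to the motifs searched. A match is a description of the letters only.

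Glucose metabolism genes followed, with 5 of 24 tested members lower and none higher (median log2 fold change -0.25). Ppp1r3b (ENSMUSG00000046794, chromosome 8: 35375739 to 35388139), the glycogen-targeting subunit of protein phosphatase 1 in liver, was at 174, 162, 179.6, 254.6 and 206 CPM at 15 months and 73.8, 67.8, 72.6, 57.3 and 79.6 CPM at 24 months. The 24-month libraries lay close together, all of them under the lowest 15-month library (log2 fold change -1.48 ± 0.21 (SE), adjusted p = 0.00222). It kept its call under all 19 alternatives. From 24 to 30 months its log2 change was 2.03 (adjusted p = 3.89e-05), and the change up to 24 months differed from the later one by -3.50 on the log2 scale (adjusted p = 1.001e-04). Another glycogen-targeting subunit gene, Ppp1r3c, fell as well (-1.10 ± 0.22 (SE), adjusted p = 0.0159, held in 9 of 10 fits, lost without 15-month replicate 3), as did the branching enzyme Gbe1 (-0.87 ± 0.19 (SE), adjusted p = 0.0231, held in 5 of 10) and liver glycogen phosphorylase Pygl (-0.68 ± 0.18 (SE), adjusted p = 0.0498, held in 1 of 10). Pck1, the enzyme that commits carbon to glucose production, and the insulin receptor substrate gene Irs2 had positive values without a call (0.71 ± 0.25, adjusted p = 0.13, and 1.49 ± 0.51, adjusted p = 0.114). Leaving out single libraries gave 2 to 7 called members of the list, and the covariate fit 2.

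Lipid droplet genes moved in both directions, with 2 of 21 tested members higher and 3 lower (median -0.39). Cidea (ENSMUSG00000024526, chromosome 18: 67343604 to 67367785), which fuses lipid droplets and builds up in fatty liver, dropped from 16.3, 7.23, 8.32, 9.91 and 27.2 CPM at 15 months to 0.0325, 0.254, 0.0395, 0.436 and 0.193 CPM at 24 months. All 24-month values were below 0.5 CPM and all 15-month values above 7 CPM (log2 fold change -6.11 ± 0.99 (SE), adjusted p = 0.0037). It had been called higher from 9 to 15 months, 4.25 (adjusted p = 0.0307), an interval that shares the 15-month libraries. The triglyceride synthesis gene Mogat1 went from 2.10 ± 0.516 to 0.171 ± 0.131 CPM (-3.56 ± 0.75 (SE), adjusted p = 0.0198) and the droplet-forming Fitm1 from 47.2 ± 7.47 to 13.3 ± 8.30 CPM (-1.82 ± 0.47 (SE), adjusted p = 0.0449, mean ± SD, n = 5 each). Pnpla2, the gene of adipose triglyceride lipase that breaks droplets down, was at 72.97, 72.9, 64.7, 68.0 and 62.1 CPM and then 118, 138, 79.6, 128 and 83.0 CPM, all 24-month libraries being above the 15-month ones (log2 fold change 0.68 ± 0.16 (SE), adjusted p = 0.033). Lipoprotein lipase, Lpl, was at 31.3, 22.4, 25.8, 40.6 and 23.3 CPM at 15 months and 171, 102, 140.1, 27.5 and 32.5 CPM at 24 months. Its 24-month replicates 1 to 3 were high, whereas replicates 4 and 5 lay within the 15-month range (log2 fold change 1.72 ± 0.44 (SE), adjusted p = 0.0433). Of these 5 calls, Cidea held in 10 of 10 fits with 1 library left out and Mogat1 in 9 (lost without 24-month replicate 3), but Fitm1 held in 1, and Pnpla2 and Lpl in 2 each. None of the 5, Cidea included, was called with the mitochondrial ribosomal RNA covariate.

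**Figure D3:**
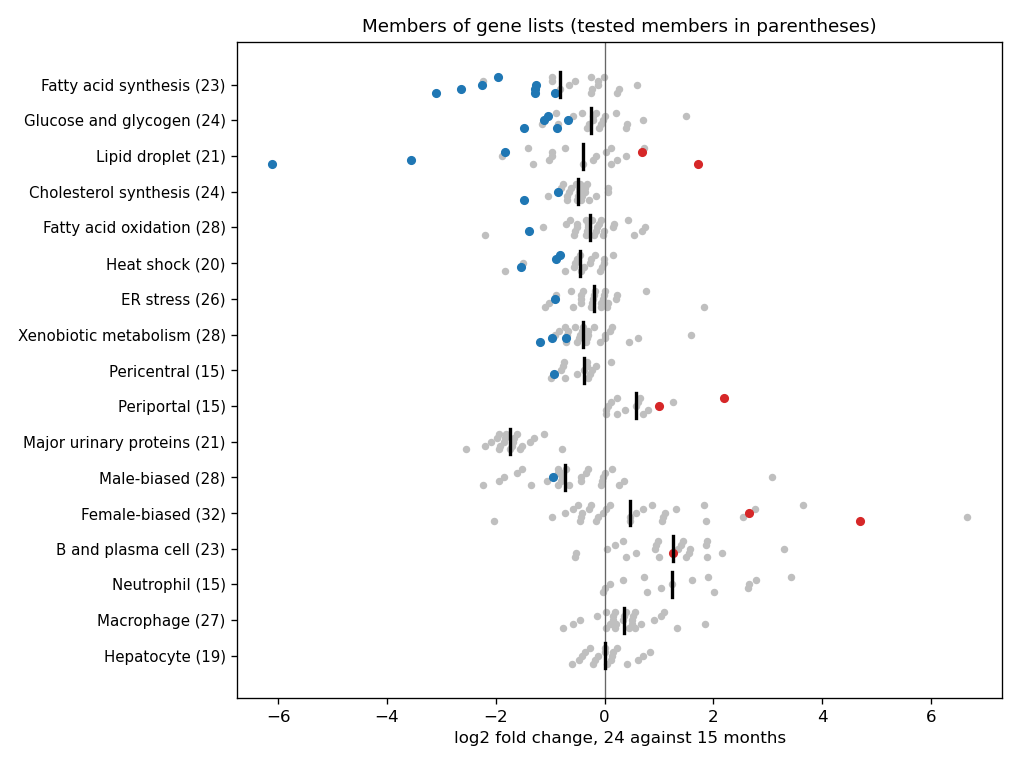
Each point is the log2 fold change from 15 to 24 months of 1 tested member of a gene list, red for called rises, blue for called falls and grey for genes not called, with the median of the list as a black bar. The fatty acid synthesis list holds the most called falls (8 of 23), and the major urinary protein list has the lowest median among the lists drawn (-1.74) with 0 of 21 called.

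Several genes outside these pathways were also called under all 19 alternatives. The receptor gene Fgfr1 (ENSMUSG00000031565, chromosome 8: 25513654 to 25575718), which binds fibroblast growth factors, was at 7.63, 9.88, 5.31, 7.31 and 8.52 CPM and then at 16.6, 22.7, 18.8, 21.9 and 20.5 CPM. Its lowest 24-month library exceeded its highest 15-month library (log2 fold change 1.38 ± 0.19 (SE), adjusted p = 0.00118), and at 30 months it was at 18.1, 16.9, 13.6, 16.9 and 13.6 CPM, a change from 24 months of -0.35 (adjusted p = 0.529). Aqp8 (ENSMUSG00000030762, chromosome 7: 123462291 to 123468004), a water channel of hepatocytes, fell from 242, 363, 302, 211 and 229 CPM to 89.8, 64.0, 41.9, 109.7 and 57.5 CPM without overlap (-1.89 ± 0.28 (SE), adjusted p = 0.00222). Pltp (ENSMUSG00000017754, chromosome 2: 164839518 to 164857711), the phospholipid transfer protein of plasma lipoproteins, was at 181, 239, 174, 177 and 154 CPM at 15 months and at 79.3, 90.2, 50.8, 89.6 and 52.5 CPM at 24 months. No values of the ages overlapped (log2 fold change -1.35 ± 0.21 (SE), adjusted p = 0.00271), after a rise from 9 to 15 months of 1.25 (adjusted p = 0.0118). The manganese exporter gene Slc30a10 went from 57.6 ± 4.06 to 27.8 ± 1.68 CPM (-1.05 ± 0.18 (SE), adjusted p = 0.00436), the kinase gene Stk38l from 35.05 ± 3.84 to 16.7 ± 3.55 CPM (-1.07 ± 0.17 (SE), adjusted p = 0.00255) and Rtkn, which encodes rhotekin, from 2.45 ± 0.291 to 5.21 ± 1.14 CPM (1.09 ± 0.16 (SE), adjusted p = 0.00222), each as mean ± SD with n = 5 per age.

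Other genes kept their call in all 10 fits with 1 library left out but not with the mitochondrial ribosomal RNA covariate. The transporter gene Mfsd7c was at 4.01, 3.03, 4.17, 5.21 and 4.15 CPM at 15 months and 18.1, 17.1, 16.7, 16.5 and 8.27 CPM at 24 months. In total, 4 of the 24-month libraries were near 17 CPM and replicate 5 was at 8.27 CPM, still above all 15-month libraries (log2 fold change 1.90 ± 0.29 (SE), adjusted p = 0.00223). Tcf3, a basic helix-loop-helix transcription factor gene of lymphoid development, rose by 0.64 ± 0.10 (SE), adjusted p = 0.0037, and Lgals1, which encodes galectin 1, went from 36.0 ± 2.98 to 11.3 ± 1.95 CPM (mean ± SD, n = 5 each; log2 fold change -1.67 ± 0.31 (SE), adjusted p = 0.0106). Ugt1a5 fell too (-1.03 ± 0.20 (SE), adjusted p = 0.0112), but the Ugt1a genes share exons, so that its counts are uncertain.

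Chaperone and sterol genes were lower in a few members. Of 20 heat shock and chaperone genes 3 fell and none rose, 19 had negative values and the median was -0.45. Their mean log2 CPM was 5.98, 6.04, 5.78, 5.37 and 5.43 in 15-month replicates 1 to 5 and 4.95 to 5.34 at 24 months. Replicates 4 and 5 of 15 months were thus close to the highest 24-month libraries. From 9 to 15 months the median of the list was -0.64, with no member called. Dnaja1, a cochaperone of Hsp70, was at 178, 208, 163, 121 and 135 CPM at 15 months and 85.1, 62.1, 95.2, 91.7 and 98.7 CPM at 24 months, without overlap (log2 fold change -0.90 ± 0.18 (SE), adjusted p = 0.0154, held in 10 of 10 fits). Hsph1, an exchange factor of Hsp70, fell as well (-1.53 ± 0.35 (SE), adjusted p = 0.0266, held in 4 of 10) and the Hsp90 partner Chordc1 fell too (-0.82 ± 0.19 (SE), adjusted p = 0.0286, held in 5 of 10), and leaving out single libraries gave 1 to 4 calls in this list. With the mitochondrial ribosomal RNA covariate none of its members was called. Among 26 genes of endoplasmic reticulum stress only Hspa5, the chaperone BiP, was called (-0.91 ± 0.24 (SE), adjusted p = 0.0466, held in 3 of 10, median of the list -0.20). In cholesterol synthesis 22 of 24 values were negative with a median of -0.48, yet only Mvd (-1.48 ± 0.33 (SE), adjusted p = 0.0267, held in 5 of 10) and Pmvk (-0.85 ± 0.22 (SE), adjusted p = 0.0433, held in 2 of 10), enzymes of the mevalonate pathway, were called, and the count ranged from 0 to 7 with single libraries left out. That count was 0 in the covariate fit, in which Hspa5 was not called either.

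In genes of oxidation and detoxification all calls were falls. Over all genes tested 1.24% were called lower, and in 5.66% the ages did not overlap. Of 28 fatty acid oxidation genes 1 fell, the peroxisomal thiolase Acaa1b (-1.39 ± 0.36 (SE), adjusted p = 0.043, held in 1 of 10 fits), whose reads may be shared with its close copy Acaa1a. Cpt1a, which admits fatty acids to mitochondria, had a value of 0.55 ± 0.18 (adjusted p = 0.0936). Its change from 24 to 30 months was -1.11 (adjusted p = 0.00526), and the 2 changes differed by 1.66 (adjusted p = 0.00766). Among 28 xenobiotic metabolism genes 3 fell (median -0.40): Aldh1a1 (-1.19 ± 0.26 (SE), adjusted p = 0.0238, held in 5 of 10), its close relative Aldh1a7 (-0.71 ± 0.14 (SE), adjusted p = 0.0111, held in 10 of 10) and the glucuronosyltransferase Ugt2b5 (-0.97 ± 0.24 (SE), adjusted p = 0.0354, held in 2 of 10), the last pair belonging to families of similar sequence in which counts are uncertain. All 3 calls, and that of Acaa1b, were lost with the mitochondrial ribosomal RNA covariate. In 6 of the 28 xenobiotic metabolism genes the ages did not overlap. None of 30 glutathione and antioxidant genes (6 non-overlapping, 12 at an unadjusted p below 0.05 in edgeR, median -0.22) and none of 33 nuclear oxidative phosphorylation genes (all 33 negative, 10 at an unadjusted p below 0.05, median -0.22) was called, the unadjusted counts standing against 2822 of 16319 over all genes.

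Genes of the 2 ends of the liver lobule had medians of opposite sign. All 15 periportal genes had positive values with a median of 0.57, of which 2 were called, and 14 of 15 pericentral genes had negative values with a median of -0.37, of which 1 was called. From 9 to 15 months the medians had the opposite signs, -0.46 for periportal and 0.50 for pericentral genes, with no member called. That interval shares the 15-month libraries. Not all 24-month mice shared the shift. In mean log2 CPM of the list, replicate 5 (8.103) lay within the 15-month periportal range of 7.965 to 8.264. Replicate 4 (7.752) lay within the 15-month pericentral range of 7.621 to 7.854. The pericentral Rgn, regucalcin, was at 1235, 1382, 1368, 978 and 1247 CPM at 15 months and 555, 449, 707, 770.4 and 776 CPM at 24 months, without overlap (log2 fold change -0.93 ± 0.17 (SE), adjusted p = 0.0106, held in 10 of 10 fits). E-cadherin, Cdh1, was at 12.996, 11.4, 4.60, 4.39 and 6.11 CPM and then 25.7, 67.0, 47.3, 21.1 and 20.2 CPM. The 24-month libraries were all above the 15-month ones, and replicate 2 was the highest (log2 fold change 2.20 ± 0.55 (SE), adjusted p = 0.0394, held in 2 of 10 fits). The steroid dehydrogenase gene Hsd17b6 went from 80.4 ± 21.7 to 161 ± 38.9 CPM (0.999 ± 0.24 (SE), adjusted p = 0.033, mean ± SD, n = 5 each, held in 4 of 10). The number of periportal calls was 0 to 5 with single libraries left out. With the mitochondrial ribosomal RNA covariate it was 0, and Rgn was not called either.

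In several of the largest rises 24-month replicates 1 to 3 were much higher than replicates 4 and 5. Col5a2 (ENSMUSG00000026042, chromosome 1: 45374321 to 45503282), a chain of type V collagen, was at 18.6, 5.30, 10.6, 8.88 and 11.7 CPM at 15 months and 308, 594, 317, 53.3 and 21.3 CPM at 24 months. Every 24-month library exceeded every 15-month one, but replicates 4 and 5 far less than the others (log2 fold change 4.55 ± 0.94 (SE), adjusted p = 0.019, lost only without 15-month replicate 3 among the leave-one-out fits). It was the only called member of 35 collagen and matrix genes (median 0.36). The trefoil peptide gene Tff3 went from 0.560, 1.71, 0.744, 0.480 and 0.271 CPM to 15.3, 37.1, 17.5, 1.21 and 3.82 CPM, with replicate 4 inside the 15-month range (4.29 ± 1.12 (SE), adjusted p = 0.0477, held in 2 of 10 fits). Gldn, which encodes gliomedin, was at 1.86, 0.402, 0.421, 0.480 and 0.489 CPM before and 11.3, 28.8, 23.3, 7.63 and 0.919 CPM after (4.29 ± 1.02 (SE), adjusted p = 0.033, held in 3 of 10). Here replicate 5 lay within the range at 15 months. The leucine-rich repeat gene Lrtm2 showed the same split, with 8.62, 12.4, 13.3, 0.748 and 0.435 CPM at 24 months against at most 0.240 CPM at 15 months (5.58 ± 1.21 (SE), adjusted p = 0.0238, held in 5 of 10). Col5a2, Tff3, Gldn and Lrtm2 all lost their call with the mitochondrial ribosomal RNA covariate. The same held with no filter on low counts and with 15-month replicates 3 and 4 both left out. At 30 months Col5a2 was at 337.97, 109.7, 50.1, 316 and 17.9 CPM, again with a wide range. Of 22 fetal liver and liver tumour genes tested 2 rose, Lpl among them, and none fell (median 0.86). Their mean log2 CPM was 2.19, 2.42, 2.46, 1.46 and 1.26 in 24-month replicates 1 to 5 and 0.90 to 1.37 at 15 months. Leaving out single libraries gave 0 to 4 calls in this list, and the covariate fit 0.

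**Figure D4:**
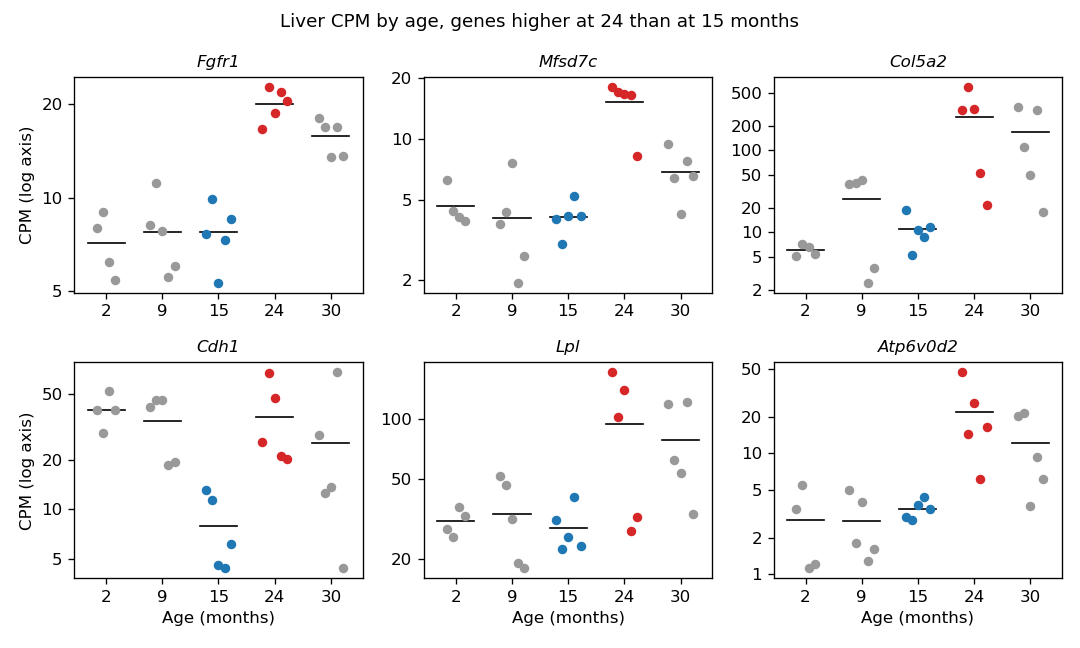
CPM (log axes) of Fgfr1, Mfsd7c, Col5a2, Cdh1, Lpl and Atp6v0d2 in each liver library by age in months, with the mean of each age as a black line, 15 months in blue and 24 months in red. The 24-month points of Fgfr1 lie close together, between 16.6 and 22.7 CPM, whereas those of Col5a2 range from 21.3 to 594 CPM and those of Lpl reach into the 15-month range.

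Levels of sex-biased genes varied widely among the 24-month mice themselves. All 21 major urinary protein genes tested had negative values, with a median of -1.74, but none was called (13 at an unadjusted p below 0.05 in edgeR, against 2822 of 16319 over all genes), and reads of these near-identical copies cannot be assigned with certainty. Their mean log2 CPM was 4.63 to 5.98 at 15 months and 0.347, 2.59, 2.65, 4.44 and 4.83 in 24-month replicates 1 to 5, so that replicate 5 lay within the 15-month range and replicate 4 just below it. Mup20, the pheromone darcin, was at 3100.1, 3739, 3159, 1539.5 and 2564 CPM at 15 months and 217.9, 1134, 1382, 2705 and 2796 CPM at 24 months (log2 fold change -0.78 ± 0.61 (SE), adjusted p = 0.541). Of 28 male-biased genes 1 fell, Ugt2b37 (-0.94 ± 0.24 (SE), adjusted p = 0.043, held in 1 of 10 fits), and the median was -0.73. Of 32 female-biased genes 2 rose with a median of 0.47, which was 0.05 to 0.57 when single libraries were left out. Neither these rises nor the fall of Ugt2b37 were called with the mitochondrial ribosomal RNA covariate. The estrogen sulfotransferase gene Sult1e1 was at 0.324, 0.107, 0.227, 0.0343 and 0.0814 CPM at 15 months and 6.12, 3.46, 10.6, 0.156 and 0.290 CPM at 24 months. Replicates 1 to 3 were high and replicates 4 and 5 close to the 15-month values (log2 fold change 4.69 ± 1.03 (SE), adjusted p = 0.0248, held in 5 of 10 fits). Atp6v0d2, a subunit of the vacuolar proton pump, was at 3.01, 2.84, 3.75, 4.39 and 3.45 CPM and then 46.9, 14.5, 26.1, 6.11 and 16.7 CPM, without overlap (log2 fold change 2.66 ± 0.55 (SE), adjusted p = 0.0197, lost without 15-month replicate 3 or 24-month replicate 1).

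Among 22 genes of growth hormone signalling 1 rose and 1 fell, neither of them called with the mitochondrial ribosomal RNA covariate. Igfbp2, a binding protein of insulin-like growth factors, was at 131, 441, 235, 169.8 and 189 CPM at 15 months and 593, 726, 471, 834 and 367 CPM at 24 months, with 15-month replicate 2 inside the 24-month range (log2 fold change 1.36 ± 0.30 (SE), adjusted p = 0.0254, held in 5 of 10 fits). The growth hormone receptor gene Ghr went from 506 ± 22.3 to 319.99 ± 55.8 CPM (-0.66 ± 0.17 (SE), adjusted p = 0.0475, mean ± SD, n = 5 each), but this call was lost whichever library was left out. Igf1, the hormone gene driven by that receptor, was at 555, 448, 568, 520.0 and 510.4 CPM and 391, 567, 539, 452 and 523 CPM and was not called (-0.07 ± 0.11, adjusted p = 0.777).

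**Figure D5:**
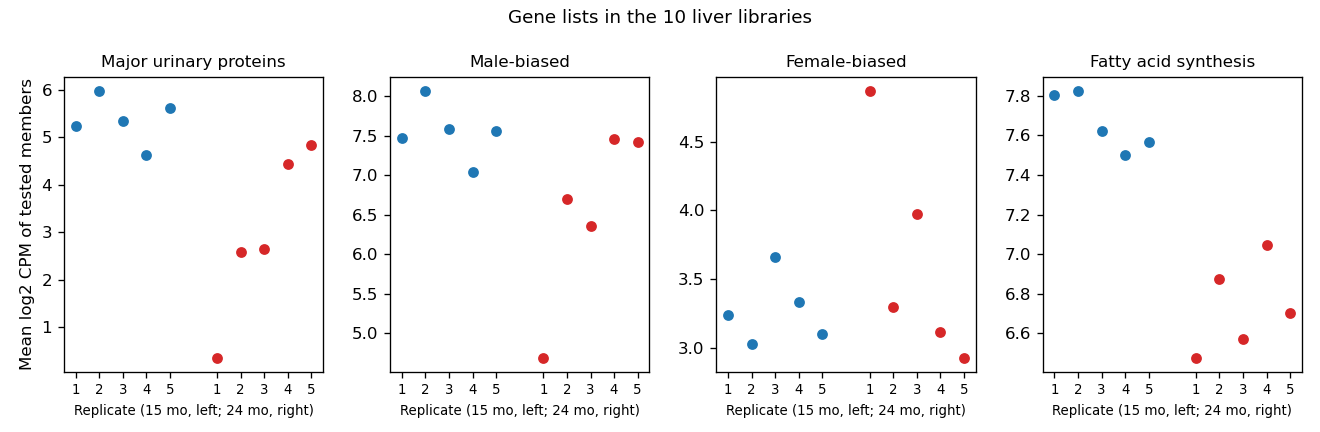
Mean log2 CPM over the tested members of the major urinary protein, male-biased, female-biased and fatty acid synthesis lists, for replicates 1 to 5 of 15 months (blue) and of 24 months (red). 24-month replicate 1 is lowest in the first panel (0.347) and highest in the third (4.87), whereas the fatty acid synthesis list is lower in all 5 libraries of 24 months than in all 5 of 15 months.

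Immune lists had positive medians but few calls. Among the 15-month libraries, replicate 2 was the lowest in mean log2 CPM of each immune cell, interferon, chemokine and antigen presentation list. It was at -0.80 for T and NK cell genes (others 0.57 to 1.55) and 3.55 for macrophage genes (others 4.45 to 5.09). For interferon and antigen presentation genes it was at 3.54 (others 4.19 to 5.09) and 5.70 (others 6.13 to 6.94). Its part in the medians was not tested. Of 23 B and plasma cell genes 21 had positive values (median 1.26) and 15 had an unadjusted p below 0.05 in edgeR, against 2822 of 16319 over all genes. In mean log2 CPM of the list 24-month replicate 3 was at 4.58 and the other libraries of that age at 2.35 to 3.11. Of its members 1 rose, Blnk, an adaptor of the B cell receptor (3.89, 1.74, 2.14, 2.64 and 2.96 CPM at 15 months, 4.49, 6.48, 9.73, 5.58 and 5.87 CPM at 24 months, log2 fold change 1.26 ± 0.28 (SE), adjusted p = 0.0254, held in 6 of 10 fits). The summed level of this list was 692.8 to 806.7 CPM at 15 months and 636.8 to 1882 CPM at 24 months, and none of its members was at 0 in all 10 libraries. The immunoglobulin kappa constant gene Igkc was at 53.5, 28.5, 48.2, 65.5 and 48.9 CPM and then 61.0, 155, 343, 63.1 and 42.0 CPM. Replicates 2 and 3 of 24 months were high and the other 3 within the 15-month range (1.44 ± 0.69, adjusted p = 0.281). No member was called among 32 T and NK cell (median 0.54), 27 macrophage (0.36), 15 neutrophil (1.24), 10 dendritic cell, 36 interferon response, 25 chemokine and 20 antigen presentation genes, with 2, 4, 8, 0, 1, 3 and 0 of them at an unadjusted p below 0.05 in edgeR, against 2822 of 16319 over all genes. Of 26 acute phase genes 1 rose (median 0.66), the iron hormone hepcidin, Hamp, at 527, 325.2, 617, 355 and 254.9 CPM before and 886, 2153, 766, 1171 and 679 CPM after. The ages did not overlap (1.44 ± 0.35 (SE), adjusted p = 0.0332, held in 4 of 10 fits), although reads may be shared with its copy Hamp2. The endothelin receptor gene Ednrb, in the stellate cell list, fell (-0.65 ± 0.15 (SE), adjusted p = 0.0308, held in 3 of 10), the only call among 16 members, of which 14 had positive values (median of the 16, 0.32). Blnk, Hamp and Ednrb all lost their call with the mitochondrial ribosomal RNA covariate.

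Cyclin D1, Ccnd1, was the only called member of 38 cell division genes (median 0.43). It was at 69.99, 21.7, 37.0, 46.5 and 34.0 CPM at 15 months and 108, 188, 142, 133 and 93.5 CPM at 24 months, all higher than at 15 months (log2 fold change 1.67 ± 0.39 (SE), adjusted p = 0.0294, held in 4 of 10 fits). Its call was lost with the mitochondrial ribosomal RNA covariate. None of 26 senescence and p53 target genes was called (2 at an unadjusted p below 0.05 in edgeR), and the cell cycle inhibitors Cdkn1a (0.18 ± 0.56) and Cdkn2a (0.03 ± 0.42) had values close to 0, as had the albumin gene Alb (0.05 ± 0.18) and Cyp7a1, the first enzyme of bile acid synthesis (0.12 ± 0.48). Ntrk2, a neurotrophin receptor gene, had 0.87 ± 0.54 (adjusted p = 0.429). The 3 acinar genes called, Ctrb1, Cela2a and Ctrl, of 4 tested of 16 found, rested on 24-month replicate 1: Ctrb1 was at 156, 0, 0.0395, 0 and 0.0483 CPM at 24 months, and the list summed to 15.4 to 40.3 CPM at 15 months and to 7.08 to 646.7 CPM at 24 months. No call of this list remained without that library, nor without any single library of 15 months or with DESeq2 or voom. In the bile acid, amino acid, complement, coagulation, endothelial, circadian clock, immediate early, ribosomal, lysosome, adipocyte, mesothelial, red blood cell and platelet lists no gene was called by edgeR, and at most 12 members of any of them had an unadjusted p below 0.05.

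Other intervals of liver ageing gave fewer calls by the same fit: 270 from 2 to 9 months, 108 from 9 to 15 months and 53 from 24 to 30 months. This order is uncertain, since leaving out 1 library gave 77 to 396 calls from 15 to 24 months. The intervals also differ in length, and the 2-month group had 4 libraries. The calls of the other intervals were not recounted under the alternatives. The test of the difference itself found 12 genes (0.0735%; 1461 at an unadjusted p below 0.05) whose change from 15 to 24 months differed from that of 9 to 15 months, 2 with a more positive and 10 with a more negative change. Against the interval of 24 to 30 months there were 171 (1.05%), 89 more positive and 82 more negative. Adjacent intervals share the libraries of the age between them, so that a high or low library there moves both changes in opposite directions. Pltp differed from the interval before (-2.60, adjusted p = 0.00127). Tcf3 differed from the interval after (1.22, adjusted p = 0.00217), its changes being 0.64 ± 0.10 up to 24 months and -0.58 (adjusted p = 0.0115) afterwards.

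The change in liver was then set against that in the other tissues of the same ages by an interaction term. It differed from skin in 28 of 18708 genes (0.15%), from blood in 85 of 16860 (0.504%) and from brain in 656 of 19392 (3.38%). In brain, 5 libraries of 15 months nearly coincided with libraries of 9 months, and without them the number for brain was 151. Against skin the clearest genes were Cidea (difference of log2 changes -5.68 ± 0.67, adjusted p = 0.000991), Gcnt4, a glycosyltransferase gene (1.19 ± 0.18, adjusted p = 0.0162), and Me1 (-2.44 ± 0.38, adjusted p = 0.0162), so that for Cidea and Me1 the fall in liver exceeded the change in skin. Against blood the first genes, Ephb4 (-3.79), Lipc (-2.70) and Tnfrsf19 (-4.87), were not called in liver, the log2 change of Ephb4 being 0.06 in liver and 3.85 in blood. Against brain, Cidea (-6.24), Lgals1 (-1.73) and Slc30a10 (-1.05) led.

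In most genes the older mice spread more widely. The median SD of log2 CPM was 0.271 at 15 months and 0.362 at 24 months, and 11087 of 16319 genes had the larger SD at 24 months.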

How the data were processed

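RNA of brain, liver, skin and blood was read from one end over 50 bases (TruSeq libraries, Illumina HiSeq). The authors aligned reads to GRCm38 with TopHat (2.0.6) and deposited raw counts per gene, made with HTSeq (0.5.3p9) and featureCounts (1.4.3-p1) per the processing notes. Whether counting used strand was not given in the sources used here, so reads of overlapping antisense genes cannot be told apart. The authors describe leaving out outlying libraries found by multidimensional scaling.

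Of the 37315 genes in the table of deposited counts, those passing filterByExpr in the 24 liver libraries were scaled by TMM and fitted with age as a factor by edgeR 4.0.16 in R 4.3.3 (robust quasi-likelihood F-test, contrast 24 against 15 months). CPM are on TMM-scaled library sizes, except that Lars2, the percentages and the acinar sum of single libraries use raw totals. SE was the log2 fold change divided by the square root of F. Benjamini-Hochberg adjustment ran over the whole table of tested genes (threshold 0.05). The 46 gene lists asked for 1093 names, 1081 of them found. The members and lists were chosen with earlier results of these data known. Named genes were those with the largest or clearest change among called genes whose average log2 CPM reached 1, the clearest of each list, and 8 genes always given. Differences between intervals and tissues were tested as contrasts and interactions. No liver pair agreed within sampling noise. Alternatives used DESeq2 1.42.0 and limma 3.58.1 (voom), other scalings and filters, other sets of libraries and each library left out; a covariate of mitochondrial ribosomal RNA and the removal of 15-month replicates 3 and 4 were added after seeing the data. Gene positions came from GENCODE vM21 (35449 genes matched by identifier). On simulated counts of 16117 genes, 66% of log2 rises of 1 and 58% of falls of 1 were recovered, and 7 of 165 calls were false. The simulated counts were drawn independently for each gene, without differences that many genes of a library share. Their share of false calls therefore cannot be carried over to the real libraries. The deposited RPKM tables were not used. Some results of the named-gene rule are not reported here.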

Additional observations from a re-analysis of the deposited data

Results flagged for a closer look

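Among 182 groups of 5 libraries checked for the named genes, 14 had 1 library whose gap to its neighbour exceeded Dixon's critical value of 0.71 of the range. Gap and range were taken on log2 CPM, and chance alone gives about 1 in 20. At 24 months, replicate 1 was high for the acinar genes Ctrb1 (155.7 CPM, next 0.0483), Cela2a (40.41 CPM, next 0.6285) and Ctrl (21.41 CPM, next 0.395), and replicate 5 was low for Mfsd7c (8.267 CPM, next 16.51). At 15 months, replicate 2 was high for Mvd (85.1 CPM, next 46.1) and Acaa1b (1413 CPM, next 915.4) and low for Ntrk2 (5.918 CPM, next 15.34), for the dendritic cell gene Batf3 (0.7497 CPM, next 1.036) and for the T cell gene Cd2 (0.4552 CPM, next 1.681). At the same age replicate 3 was high for Akr1d1 (241.2 CPM, next 164.5) and at 0 for Ctrb1 (next 0.0268 CPM), replicate 4 was high for Cdkn2a (0.9948 CPM, next 0.7056), and replicate 1 was high for Gldn (1.857 CPM, next 0.4885) and low for Sds (31.68 CPM, next 55.23).

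The change from 15 to 24 months differed between liver and another tissue by the interaction test in 28 genes for skin, 85 for blood and 656 for brain (edgeR, adjusted p below 0.05). The leading genes by difference of log2 changes were Cidea (-5.677), Gcnt4 (1.195) and Me1 (-2.443) against skin, Ephb4 (-3.791), Lipc (-2.704) and Tnfrsf19 (-4.873) against blood, and Cidea (-6.235), Lgals1 (-1.731) and Slc30a10 (-1.052) against brain.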

How the results depend on the processing

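No paired analysis was possible because liver libraries of different ages come from different mice and share no number. The calls from 15 to 24 months (0.821% of genes tested higher, 1.24% lower) became 122 with no filter on low counts (0.179%, 0.226%), 874 with DESeq2 (2.46%, 2.9%), 185 with the added 2-month library in the fit (0.484%, 0.663%), 11 with the mitochondrial ribosomal RNA covariate (0.0184%, 0.049%) and 29 without 15-month replicates 3 and 4 (0.0302%, 0.145%). Leaving out 1 library gave 77 to 396 calls (0.129 to 1.01% higher, 0.326 to 1.42% lower). RLE scaling, voom, a filter on zero counts and the fit of 10 libraries alone gave 280 to 347. That filter left out genes with a count of 0 in any of the 24 liver libraries. Genes whose change differed from the interval before (12) numbered 149 with DESeq2, 28 with voom, 5 with the added library and 4 to 21 with 1 library left out. Against the interval after (171) there were 100 with no filter, 434 with DESeq2, 110 with the added library and 71 to 156 with 1 library left out. For skin (28), blood (85) and brain (656) the counts were 8 to 66, 49 to 95 and 487 to 1020 with 1 liver library left out, and 151 for brain without the 5 libraries near those of 9 months. The cause of these shifts was not tested.

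Of 91 named genes, 56 were called and 10 kept their call and direction in all 19 alternatives, and no call reversed. Uncalled values near 0 changed sign. Cdkn1a was -0.0655 with voom, -0.4569 with the covariate and -0.4345 to 0.4323 with 1 library left out. Cdkn2a was -0.1153, -0.04654 and -0.2216 to 0.2207 in the same order. Cyp7a1 was -0.06413 with voom and -0.0464 to 0.3872 with 1 library left out. Alb was -0.1158 with the covariate, -0.05625 without 15-month replicates 3 and 4, and -0.0313 to 0.248 with 1 library left out. For Ephb4 the covariate gave -0.07166 and leaving out 1 library -0.06512 to 0.1532, for Igf1 leaving out 1 library gave -0.1144 to 0.001613, and for Tnfrsf19 the covariate gave 0.1126. Of 418 values for lists under alternatives, 135 moved by more than the spread between libraries or 1.5 times. Hour of killing and feeding state were not given in the sources used here, and 5 mice an age limit what can be called.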
